A study of Homo sapiens with 6 samples.

Results

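The respiratory chain genes are the protein-coding genes for the subunits of complexes I to V of the mitochondrial inner membrane. They were chosen by symbol (NDUFA, NDUFB, NDUFC, NDUFS and NDUFV without the NDUFAF assembly factors, SDHA to SDHD, UQCR, CYC1, COX4 to COX8, ATP5) together with the 13 protein genes of mitochondrial DNA (mtDNA), and kept where the mean over the libraries was at least 0.5 FPKM. FPKM is a level of fragments scaled by transcript length and library size. It allows only a rough comparison between genes where they share bases or have nearly identical copies. Of 104 candidate genes, 95 passed, among 14770 genes tested and 60612 gene identifiers in all. The 95 comprised 82 nuclear genes and 13 mtDNA genes, with 45 genes in complex I, 4 in complex II, 11 in complex III, 15 in complex IV and 20 in complex V. NDUFA4 was counted in complex IV, and the readthrough gene NDUFC2-KCTD14 and the retrocopy UQCRHL met the rule and were kept.

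RNA was sequenced from MDA-MB-231 cells, a human triple-negative breast cancer line, stably expressing a control hairpin (Sh-NC, labelled wild type) or a hairpin against YAP1 (Sh-YAP1, labelled YAP1 knockdown). All cells were otherwise untreated and were taken at day 3, with 3 libraries per group. The question was which transcripts differ when YAP1, a transcriptional co-activator of the Hippo pathway, is depleted. The study's methods say in general that its data came from independent experiments, but do not say so of the sequencing libraries. The labels do not say whether the replicates were separate cultures, and neither source gives how many hairpin sequences or clones stand behind a group, so p-values measure only the spread between these libraries. YAP1 was 28.1, 26.2 and 22.9 FPKM in Sh-NC and 3.35, 2.67 and 2.58 FPKM in Sh-YAP1. The log2 fold change of YAP1 was -2.79 ± 0.12 (SE, n = 3 per group, adjusted p = 0.0018 by limma), so the labels held. VIM (1645 to 2303 FPKM), CD44 (114 to 147) and KRT18 (99.9 to 126) were present in all libraries. ESR1 (at most 0.07), PGR (at most 0.01) and CDH1 (at most 0.49) were near 0, and ERBB2 was 14.3 to 18.1. Of markers of other cells, PTPRC reached 0.04, PECAM1 1.70 and ALB 1.79 FPKM.

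Complexes I to IV pass electrons from NADH and succinate to oxygen, and complexes I, III and IV pump protons that complex V, the ATP synthase, uses to make ATP. All complexes but complex II mix subunits encoded in the nucleus with subunits encoded in mtDNA, so both genomes must supply a working chain. The mtDNA is transcribed from both strands into long precursors that are cut at tRNAs, and MT-ND6 is the only protein gene read from the light strand.

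Pairs of mtDNA genes share bases, and nuclear pseudogene copies carry nearly the same letters, which bears on how reads are divided between them. The overlaps and the copy of MT-ATP6, which held the largest share of FPKM beside its gene, are shown, and they were read from the GENCODE 29 transcripts of GRCh38, written 5′ to 3′. MT-ATP8 (chrM:8366-8572) and MT-ATP6 (chrM:8527-9207) overlap by 46 bases and MT-ND4L (chrM:10470-10766) and MT-ND4 (chrM:10760-12137) by 7, all coding on the plus strand. Capitals mark the overlap, with 15 bases on each side, in chrM:8512-8587 and chrM:10745-10781.
MT-ATP8 and MT-ATP6: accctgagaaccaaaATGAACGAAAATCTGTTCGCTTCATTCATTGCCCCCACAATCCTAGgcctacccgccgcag
MT-ND4L and MT-ND4: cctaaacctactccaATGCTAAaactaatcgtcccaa

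The copy MTATP6P1 on chromosome 1 differs from MT-ATP6 at 10 of 681 bases (98.5% identity), and MTND2P28 differs from MT-ND2 at 17 of 1042 aligned bases (98.4%). Capitals mark the bases that differ within the stretch of 60 with the most differences, chrM:8642-8701 against chr1:633811-633870 on the plus strand for MT-ATP6.
MT-ATP6: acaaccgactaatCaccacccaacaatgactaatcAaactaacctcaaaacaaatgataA
MTATP6P1: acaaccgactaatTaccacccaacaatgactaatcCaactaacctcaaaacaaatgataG
Of the FPKM listed for a gene and its pseudogene copies together, the copies held 37.7% for MT-ATP6, 12.2% for MT-ND2, 9.51% for MT-CO1 and 2.79% for MT-ND1, and under 1% for each of the other 9 genes. The levels of MT-ATP6, MT-ND2 and MT-CO1 are therefore uncertain in their division from these copies.

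Across the respiratory chain 1 gene was called at an adjusted p under 0.05 by limma with Benjamini-Hochberg adjustment over all genes tested. ATP5F1B, the catalytic beta subunit of the ATP synthase, fell in Sh-YAP1, and 0 of 95 genes rose. This is 1.05% of the respiratory chain genes beside 3.38% of all genes tested (1.62% lower and 1.75% higher). At an unadjusted p under 0.05, 10 genes were higher and 12 were lower, which together is 23.2% of the 95 beside 21.9% of all genes. In 11 genes all Sh-YAP1 libraries were above all Sh-NC libraries, and in 15 all were below, together 27.4% beside 29.4% of all genes. Of the 95 log2 fold changes 42 were above 0, beside 49.8% over all genes. These counts lay near or under the background. Libraries rescaled to the FPKM outside genes with MT- symbols had 17 genes higher and 12 lower without overlap, beside 18.4% and 11.5% of all genes, and in the nuclear genes the split went from 7 higher and 15 lower to 12 and 12. The median log2 fold change was -0.06 over the 82 nuclear genes and 0.17 over the 13 mtDNA genes, beside -0.00 over all genes tested. The nuclear median was -0.0095 after rescaling to the FPKM outside MT- genes, beside 0.040 over all genes tested. It was -0.013 under quantile normalization, beside -0.0023 over all genes tested. Without Sh-YAP1 replicate 2 it was -0.095, and without Sh-YAP1 replicate 3 it was -0.092. Fold changes are of log2(FPKM + 1), and the median standard error over the 95 genes was 0.09.

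**Figure D1:**
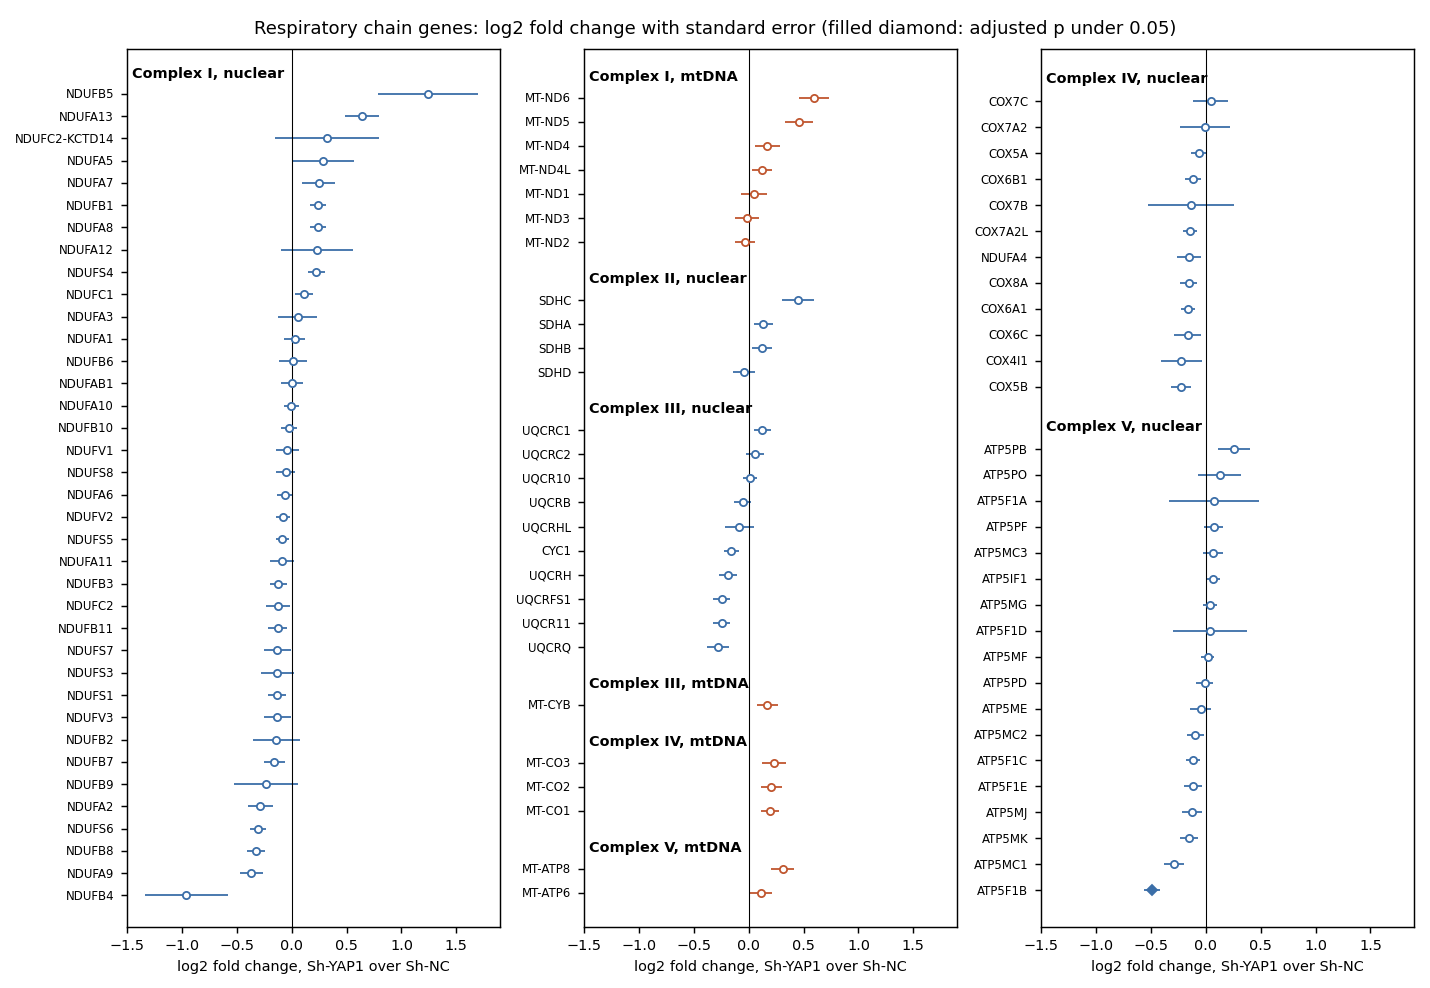
Log2 fold change (x axis, Sh-YAP1 over Sh-NC) with its standard error for the respiratory chain genes reported here, grouped by complex and by genome, with nuclear genes in blue and mtDNA genes in orange. ATP5F1B at -0.49 is the single filled diamond (adjusted p under 0.05), 11 of 13 mtDNA genes lie above 0 and 11 of 12 nuclear complex IV genes below 0, counts that were 13 and 10 after rescaling to the FPKM outside MT- genes (which put 56.9% of all genes above 0) and 5 and 10 under quantile normalization.

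The mtDNA genes made up most of the respiratory chain RNA. Their mean levels ran from 1696 FPKM for MT-ND6 to 15652 FPKM for MT-CO2, with a median of 4736, whereas the nuclear genes ran from 1.09 FPKM for NDUFC2-KCTD14 to 502 FPKM for COX6A1, with a median of 72.0. The 13 genes held 16.7, 16.3 and 18% of all FPKM in Sh-NC and 21.7, 18.8 and 18% in Sh-YAP1, so the groups overlapped. The 82 nuclear genes held 1.64, 1.65 and 1.56% against 1.45, 1.58 and 1.60%. The ratio of mtDNA to nuclear FPKM was 10.1, 9.86 and 11.5 in Sh-NC and 15, 11.8 and 11.2 in Sh-YAP1. Sh-YAP1 replicate 1 stood apart, with the highest value of all libraries in 12 of 13 mtDNA genes and the lowest in 42 of 82 nuclear genes. Without it the medians were 0.08 for mtDNA genes and -0.04 for nuclear genes. FPKM is relative to a library's total, so the nuclear values are not independent of the mtDNA share. As a share of the FPKM outside genes with MT- symbols, the nuclear genes held 2.04, 2.03 and 1.97% in Sh-NC and 1.93, 2.01 and 2.02% in Sh-YAP1. In these bulk libraries, fewer cells with a transcript and less of it per cell cannot be told apart.

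**Figure D2:**
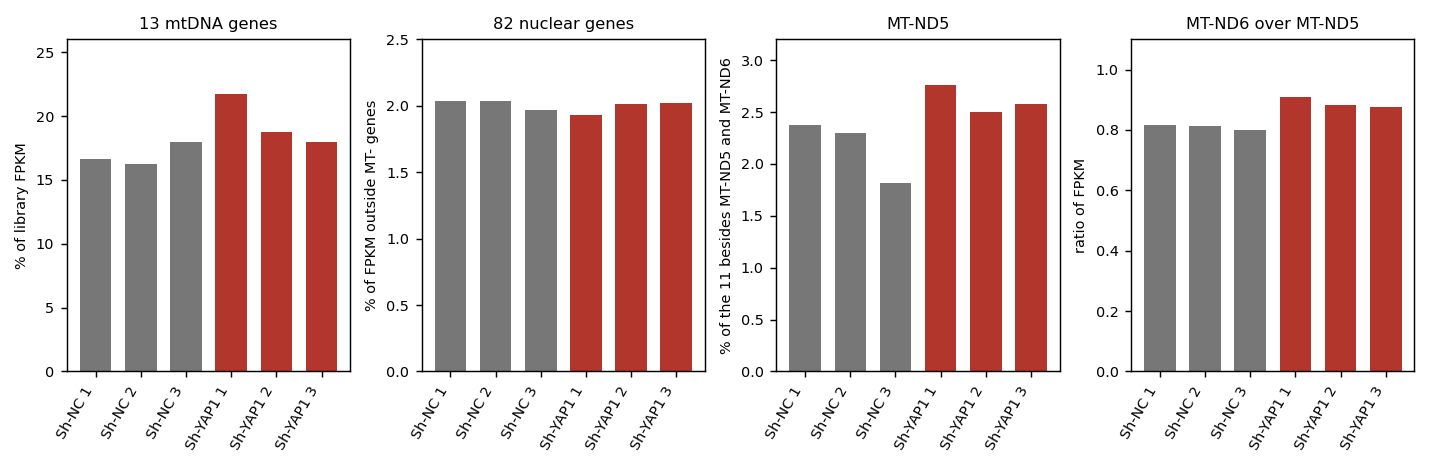
Bars give, for each library, the 13 mtDNA genes as a percentage of all FPKM, the 82 nuclear genes as a percentage of the FPKM outside MT- genes, MT-ND5 as a percentage of the 11 mtDNA genes besides MT-ND5 and MT-ND6, and the FPKM ratio of MT-ND6 to MT-ND5. The first and second overlap between groups, with Sh-YAP1 replicate 1 at 21.7% in the first, while all Sh-YAP1 libraries lie above all Sh-NC libraries in the third and the fourth.

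Among the mtDNA genes of complex I, MT-ND5 and MT-ND6 had the largest differences, and neither passed the test as deposited. MT-ND6 (chrM:14149-14673, minus strand) was 1448, 1390.2 and 1203 FPKM in Sh-NC and 2464, 1859 and 1814 FPKM in Sh-YAP1. All 3 Sh-YAP1 libraries were higher, with a log2 fold change of 0.59 ± 0.14 (SE, adjusted p = 0.0745 by limma, and 0.0327 under quantile normalization). MT-ND5 (chrM:12337-14148, plus strand), which ends at the base before MT-ND6, was 1771, 1706 and 1504 against 2707, 2108 and 2073 FPKM. Again the groups did not overlap, with a log2 fold change of 0.46 ± 0.12 (adjusted p = 0.102 by limma). Both were also higher relative to the other 11 mtDNA genes of the same library. As genes picked for the largest differences they stand above the rest in part by that choice, so these ratios are no separate support. MT-ND5 was 2.37, 2.30 and 1.82% of those 11 in Sh-NC and 2.76, 2.5 and 2.58% in Sh-YAP1 (exact permutation p = 0.1, two-sided, the smallest that 3 against 3 allows). MT-ND6 was 1.94, 1.88 and 1.45% of them against 2.51, 2.20 and 2.26% (exact permutation p = 0.1). The ratio of MT-ND6 to MT-ND5 was 0.818, 0.815 and 0.799 in Sh-NC and 0.910, 0.882 and 0.875 in Sh-YAP1 (exact permutation p = 0.1). MT-TE, the light-strand tRNA gene beside MT-ND6, was listed at 264, 256 and 223 FPKM against 399, 323 and 312. Whether reads were counted by strand is not given in the sources used here, so MT-ND6 and RNA antisense to it cannot be told apart.

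The other complex I genes of mtDNA differed less. MT-ND1 was 3713, 3549.7 and 3902 FPKM in Sh-NC and 4566, 3550.2 and 3520.2 FPKM in Sh-YAP1, a log2 fold change of 0.05 that rested on Sh-YAP1 replicate 1 and was -0.07 without it. MT-ND4 and MT-ND4L had log2 fold changes of 0.17 and 0.12, which were 0.052 and 0.061 without the same library, and MT-ND4L was 0.075 without Sh-NC replicate 2. As deposited, MT-ND2 (-0.03) and MT-ND3 (-0.01) were the only mtDNA genes below 0. Both were above 0 (0.02 and 0.04) when libraries were rescaled to the FPKM outside MT- genes, beside a median of 0.040 over all genes tested. Under quantile normalization, which makes the highest values equal across libraries, the median of the mtDNA genes was 0.00, with 5 genes above 0, 6 at 0, MT-ND1 at -0.01 and MT-CO1 at -0.04.

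In complexes III, IV and V the 6 mtDNA genes all had positive log2 fold changes as deposited, with MT-CO1 at -0.04 under quantile normalization, and none was called. MT-CYB, the cytochrome b of complex III, had 0.17 ± 0.09 (SE), which was 0.076 without Sh-YAP1 replicate 1 and 0.054 under quantile normalization. MT-CO1, which carries the oxygen-reducing centre of complex IV, was 9569, 9259 and 9960.3 FPKM in Sh-NC and 12069, 10360.2 and 10612 FPKM in Sh-YAP1. These groups did not overlap (log2 fold change 0.20, adjusted p = 0.233 by limma), while those of MT-CO2 (0.21) and MT-CO3 (0.23) did. MT-ATP8 was 9410, 9866 and 10383 against 14134, 11790 and 10989 FPKM without overlap (0.31, adjusted p = 0.167 by limma). MT-ATP6, which shares the 46 bases shown above with MT-ATP8, had 0.11 ± 0.10 and overlapping groups, with values of 0.073 without Sh-NC replicate 2 and 0.18 without Sh-YAP1 replicate 3. Without Sh-YAP1 replicate 1 the log2 fold changes were 0.13 for MT-CO1, 0.15 for MT-CO3, 0.20 for MT-ATP8 and 0.019 for MT-ATP6. Under quantile normalization MT-CO2 and MT-CO3 were at 0.00, MT-ATP8 at 0.036 and MT-ATP6 at 0.072. The ratio of MT-ATP8 to MT-ATP6 was 2.84, 3.12 and 2.92 in Sh-NC and 3.44, 3.36 and 3.36 in Sh-YAP1 (exact permutation p = 0.1), whereas that of MT-ND4L to MT-ND4 overlapped between groups. The part that the division of reads in shared bases has in these ratios was not tested. The ribosomal RNA genes MT-RNR1 and MT-RNR2 overlapped between groups as well.

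**Figure D3:**
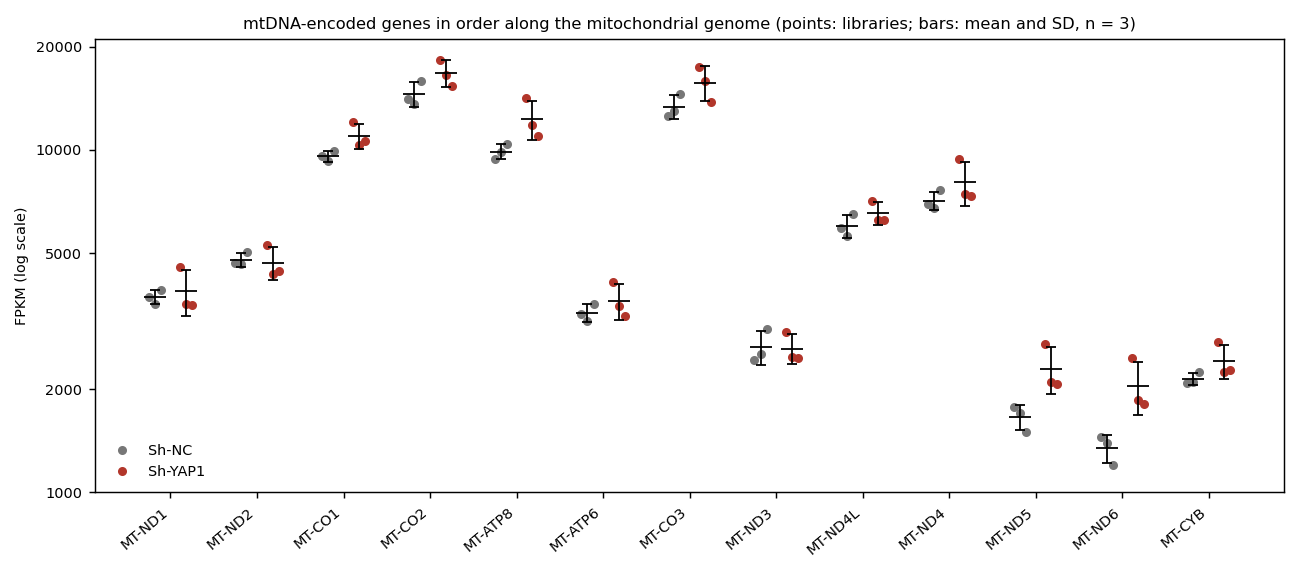
FPKM (y axis, log scale) of the 13 mtDNA genes in their order along the mitochondrial genome, with 1 point per library and bars for the mean and SD (n = 3). Grey and red points separate in MT-CO1, MT-ATP8, MT-ND5 and MT-ND6, with MT-ND6 at 1203 to 1448 in Sh-NC and 1814 to 2464 in Sh-YAP1.

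The 38 nuclear genes of complex I, the NADH dehydrogenase, had a median log2 fold change of -0.06, and 0 were called. The median was -0.0040 after rescaling to the FPKM outside MT- genes, beside 0.040 over all genes tested. It was -0.0075 under quantile normalization, -0.023 without Sh-NC replicate 1, -0.037 without Sh-YAP1 replicate 1 and -0.087 without Sh-YAP1 replicate 3. Without overlap 5 of 38 were higher and 4 were lower, which is 13.2% and 10.5% beside 14.6% and 14.7% of all genes tested. NDUFA13, NDUFB1, NDUFA8 and NDUFS4 were among those higher without overlap, and NDUFA9, NDUFB8, NDUFS6 and NDUFA2 were lower without overlap. NDUFB1, an accessory subunit of the membrane arm, was 90.7, 86.2 and 79.7 FPKM in Sh-NC and 101, 98.1 and 104 FPKM in Sh-YAP1 (0.24 ± 0.07, adjusted p = 0.121 by limma). NDUFA8 (0.24 ± 0.07) and NDUFS4 (0.23 ± 0.08) were alike in size. The rise of NDUFB1 rested on 1 transcript (mean 7.46 against 31.1 FPKM), and without it the log2 fold change was -0.16. Without its most changed transcript NDUFS4 was at 0.07, whereas NDUFA8 has 1 transcript only. NDUFS6, an accessory subunit of the NADH-oxidizing arm, was 88.2, 77.6 and 87.8 FPKM in Sh-NC and 68.3, 67.1 and 68.7 FPKM in Sh-YAP1 (log2 fold change -0.31 ± 0.07, adjusted p = 0.0778 by limma). NDUFB8, also of the membrane arm, was 115, 107 and 106 against 86.9, 94.3 and 80.1 (-0.32 ± 0.08, adjusted p = 0.0851). NDUFA9 was 8.66, 9.80 and 8.78 against 6.27, 7.73 and 6.5 FPKM (-0.37 ± 0.10, adjusted p = 0.105). In each of these 3 the highest Sh-YAP1 library was under the lowest Sh-NC library. NDUFS5, the most abundant nuclear gene of the complex, differed by -0.08 ± 0.06 (0.03 under quantile normalization) with overlapping groups (223 to 237 against 209 to 225 FPKM).

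The 4 genes of complex II, succinate dehydrogenase, are all nuclear, with a median log2 fold change of 0.13 (0.077 without Sh-YAP1 replicate 3). SDHC, a membrane anchor, was 50.3, 74.2 and 66.5 FPKM in Sh-NC and 79.4, 90.5 and 89.2 FPKM in Sh-YAP1. The groups did not overlap, and the log2 fold change was 0.45 ± 0.15 (adjusted p = 0.148 by limma), which was 0.29 without Sh-NC replicate 1. SDHA, the flavoprotein, was 85.1 ± 7.64 against 93.4 ± 5.88 FPKM (SD, n = 3). SDHB, the iron-sulphur subunit, was 68.4 ± 5.94 against 74.6 ± 5.21 FPKM. SDHD, the other anchor, was 50.1 ± 3.42 against 48.8 ± 5.10 FPKM. These 3 overlapped between groups as deposited, and SDHA did not after rescaling to the FPKM outside MT- genes.

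Complex III, the cytochrome bc1 complex, had 10 nuclear genes with a median log2 fold change of -0.12, which was -0.18 without Sh-YAP1 replicate 2. After rescaling to the FPKM outside MT- genes the median of these 10 genes was -0.077, beside 0.040 over all genes tested. Of these, UQCRQ, UQCR11, UQCRFS1, UQCRH and CYC1 were lower without overlap (5 of 10, beside 14.7% of all genes tested), 0 were higher without overlap, and 0 were called. UQCRFS1, the Rieske iron-sulphur protein, was 53.8, 55.9 and 51.4 FPKM in Sh-NC and 42.1, 48.4 and 45.2 FPKM in Sh-YAP1 (-0.24 ± 0.08, adjusted p = 0.137 by limma). UQCR11 was 60.3, 59.9 and 55.5 against 45.8, 49.4 and 52.5 FPKM (-0.25 ± 0.08). UQCRQ was 63.4, 66.8 and 64.5 against 47.2, 60.2 and 53.2 FPKM (-0.28 ± 0.10). CYC1, the cytochrome c1 protein, was 151, 151 and 140.4 against 124, 138 and 135 FPKM (-0.16 ± 0.07, and -0.089 under quantile normalization). Sh-YAP1 replicate 1 held the lowest value in each of the 5. UQCRC1, a core protein, differed the other way, with 91.0 ± 6.75 against 99.0 ± 3.68 FPKM (SD) and overlapping groups. Its log2 fold change of 0.12 ± 0.08 was 0.059 without Sh-NC replicate 3. After rescaling to the FPKM outside MT- genes, CYC1 overlapped, the other 4 did not (beside 11.5% of all genes), and UQCRC1 and UQCR10 were higher without overlap.

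Complex IV, cytochrome c oxidase, had 12 nuclear genes with a median log2 fold change of -0.15, of which 11 were below 0 and 3 (COX5B, COX6A1 and COX7A2L) were lower without overlap, 25% beside 14.7% of all genes tested. None was called. COX6A1, the most abundant nuclear gene of the chain, was 547, 528 and 517 FPKM in Sh-NC and 448, 479 and 496 FPKM in Sh-YAP1 (-0.16 ± 0.07, adjusted p = 0.215 by limma), and the difference was -0.014 under quantile normalization. COX5B was 134, 135 and 155 against 111, 127 and 124 FPKM (-0.23 ± 0.09). After rescaling to the FPKM outside MT- genes 10 were below 0, COX7A2L overlapped and 16.7% were lower without overlap beside 11.5% of all genes. The median was then -0.097, beside 0.040 over all genes tested. COX7C, the single gene above 0 as deposited, was 139.8 ± 7.80 against 147 ± 33.6 FPKM (SD). The median moved to -0.07 without Sh-YAP1 replicate 1. Several subunits have forms restricted to certain tissues or to low oxygen. COX4I1 was 246, 166 and 149 against 153, 144 and 173 FPKM, with COX4I2 listed at 0 in all libraries. COX6A2, COX7B2 and COX8C were also listed at 0, and COX7A1 was listed at 0.33 FPKM in Sh-NC replicate 1 and at 0 elsewhere beside COX7A2 at 55.4 ± 1.84 against 57.5 ± 20.1 FPKM. NDUFA4 was 76.7 ± 6.30 against 69.0 ± 7.86 FPKM, and its hypoxia-associated paralog NDUFA4L2 was at most 0.5. COX6B2, ATP5MGL and ATP5MF-PTCD1 were the other candidates under the 0.5 FPKM limit.

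Complex V held the call. ATP5F1B (ENSG00000110955, chr12:56638175-56646068, minus strand, GRCh38) was 366, 366 and 345 FPKM in Sh-NC and 273, 251 and 243 FPKM in Sh-YAP1. The groups did not overlap, and the Sh-YAP1 mean was 0.712 of the Sh-NC mean (log2 fold change -0.49 ± 0.07, adjusted p = 0.0237 by limma, exact permutation p = 0.1). Its main transcript, with 90.7% of the gene's FPKM, was 322, 330.1 and 313 against 238, 239 and 232 FPKM. The adjusted p was 0.0374 after rescaling to the FPKM outside MT- genes, 0.0532 after quantile normalization and 0.124 with a replicate block. The call was lost when any library other than Sh-YAP1 replicate 1 was left out (adjusted p from 0.0591 to 0.0946), with log2 fold changes of -0.45 to -0.52. It was lost as well without the filter on low values (0.0576).

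The other 17 nuclear genes of complex V ran from -0.29 to 0.26, and the median over all 18 was 0.00. It was 0.056 after rescaling to the FPKM outside MT- genes, beside 0.040 over all genes tested. It was 0.053 under quantile normalization, -0.013 with libraries centred on their medians, and -0.069 to 0.021 with 1 library left out. ATP5MC1, 1 of 3 genes for the same c subunit of the rotor ring, was 105, 112 and 98.0 FPKM in Sh-NC and 77.6, 93.4 and 86.9 FPKM in Sh-YAP1 (-0.29 ± 0.09, adjusted p = 0.142 by limma). ATP5MC2 was 163 ± 7.21 against 153 ± 11.9 FPKM and ATP5MC3 54.0 ± 5.68 against 56.5 ± 2.34 FPKM (SD), both overlapping. ATP5F1C, the gamma subunit of the central stalk, was lower without overlap as deposited (-0.11) but not after rescaling to the FPKM outside MT- genes (-0.060), and was -0.037 under quantile normalization. ATP5IF1, the inhibitor of ATP hydrolysis, was higher without overlap (0.07, with 0.12 and 0.11 under these scalings). ATP5PB, a stalk subunit with the largest positive value of these nuclear genes (0.26 ± 0.14), overlapped between groups, with 0.11 without Sh-NC replicate 1 and 0.39 without Sh-NC replicate 3. ATP5F1A, the alpha subunit that alternates with ATP5F1B in the catalytic ring, was 93.0, 206 and 101 FPKM in Sh-NC and 86.4, 123 and 212 FPKM in Sh-YAP1, with no separation of the groups (0.07 ± 0.41).

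**Figure D4:**
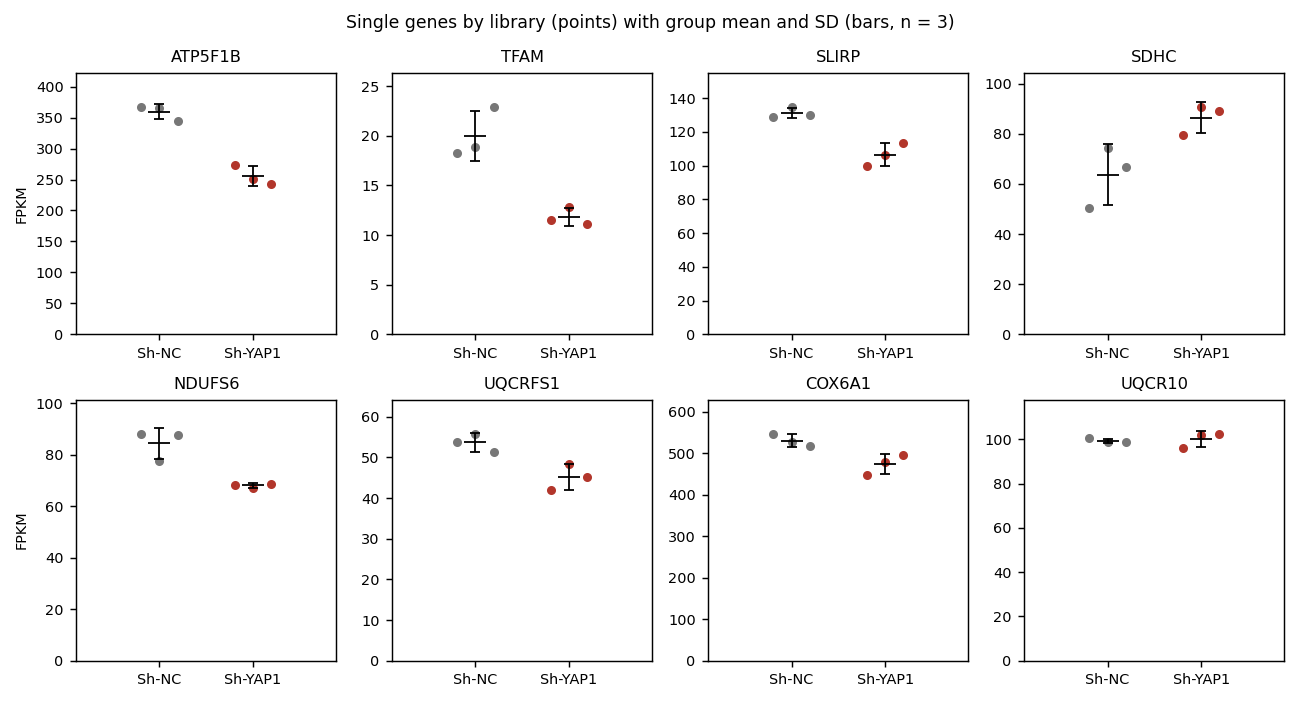
FPKM (y axes, from 0) of 8 genes, with 1 point per library and bars for the mean and SD (n = 3 per group). ATP5F1B and TFAM passed the test and lie lower in Sh-YAP1, SLIRP, NDUFS6, UQCRFS1 and COX6A1 are lower and SDHC is higher without overlap, and UQCR10 overlaps (96.0 to 103 in Sh-YAP1).

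The largest fold changes of the nuclear genes, in NDUFB5 and NDUFB4, came with libraries of 1 group that differed from each other. NDUFB5 was 15, 11.5 and 13.3 FPKM in Sh-NC and 14.2, 50.4 and 47.4 FPKM in Sh-YAP1 (log2 fold change 1.24 ± 0.46, adjusted p = 0.183 by limma). A single transcript accounted for much of this, at 0.40, 2.03 and 0.96 against 1.71, 26.9 and 22.9 FPKM. Sh-YAP1 replicate 1 was at the control level, and without that library the log2 fold change was 1.81 (adjusted p = 0.0222). NDUFB4 was 118, 133 and 46.5 FPKM in Sh-NC and 47.9, 42.9 and 47.0 FPKM in Sh-YAP1 (-0.96 ± 0.37, adjusted p = 0.202). Its main transcript differed in level between the Sh-NC libraries (112, 128 and 42.3 FPKM). Sh-NC replicate 3 was at the Sh-YAP1 level, and without it the log2 fold change was -1.43 (adjusted p = 0.0210).

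Some genes showed transcripts that were present in some libraries and at or near 0 in others. In ATP5F1A a transcript at 186 FPKM in Sh-NC replicate 2 and 197 FPKM in Sh-YAP1 replicate 3 was listed at 0 in the other libraries. In NDUFA13 (72.4, 46.9 and 52.7 against 84.1, 92.1 and 89.7 FPKM, log2 fold change 0.64 ± 0.16, adjusted p = 0.0810 by limma), a transcript at 27.5 and 34.4 FPKM in 2 Sh-YAP1 libraries was at most 0.20 elsewhere. Without this transcript the log2 fold change of NDUFA13 was 0.24, and without Sh-NC replicate 1 that of the whole gene was 0.82 (adjusted p = 0.0445 by limma). In SDHC a transcript was 4.59, 0 and 0 FPKM in Sh-NC and 30.4, 31.2 and 35.5 FPKM in Sh-YAP1, and without it the difference was -0.17. In ATP5PB a transcript at 64.9 FPKM in Sh-NC replicate 1 was listed at 0 in the other 5 libraries. Each such gene value rests on how fragments were assigned to transcripts, and the part of that step in these differences was not tested.

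**Figure D5:**
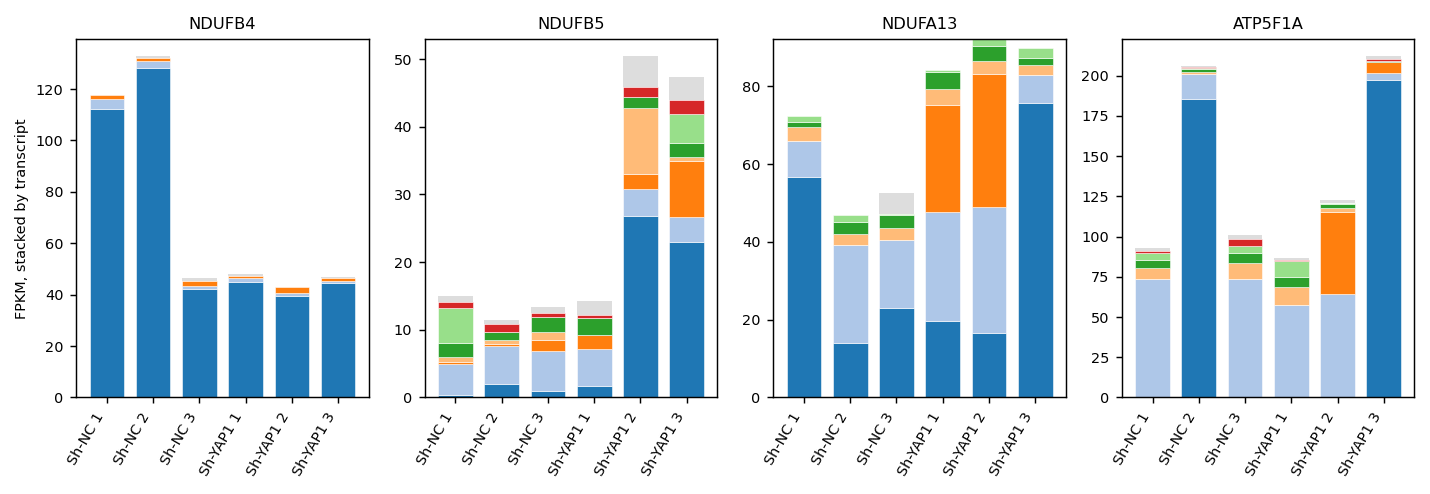
Stacked bars give the FPKM of each transcript with a mean of at least 1 FPKM, in 1 colour per transcript within a gene and with the remaining transcripts in grey, for NDUFB4, NDUFB5, NDUFA13 and ATP5F1A in each library. The dark blue transcript of NDUFB5 is at 26.9 and 22.9 in Sh-YAP1 replicates 2 and 3 and at 2.03 or less elsewhere, and that of ATP5F1A is present in 1 library of each group.

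Genes that build, transcribe or maintain the chain were taken as 9 lists with 84 genes, of which 83 were tested and FASTKD4 was not matched. Across them 0 were called higher and 1 was called lower, beside 1.75% and 1.62% of all genes. That gene was TFAM, which packages mtDNA and starts its transcription. TFAM was 18.3, 18.8 and 22.9 FPKM in Sh-NC and 11.5, 12.9 and 11.1 FPKM in Sh-YAP1, without overlap (log2 fold change -0.71 ± 0.11, adjusted p = 0.0266 by limma). The TFAM call was lost when any 1 library was left out (adjusted p from 0.0586 to 0.0967), without the filter on low values (0.0564) and with a replicate block (0.132), all with the same direction. POLRMT, the mitochondrial RNA polymerase, overlapped between groups (13 ± 1.44 against 12.6 ± 1.39 FPKM, SD). Of the 13 genes for mitochondrial transcription and mtDNA maintenance, 2 were higher and 1 lower without overlap, beside 14.6% and 14.7% of all genes tested. Those higher were TFB1M (0.42 ± 0.11, adjusted p = 0.0901 by limma) and TOP1MT (0.30 ± 0.09, adjusted p = 0.128 by limma). SLIRP, which with LRPPRC stabilizes mitochondrial mRNA, was 129, 135 and 130.2 against 99.8, 106 and 113 FPKM (-0.30 ± 0.07, adjusted p = 0.0741), while LRPPRC was 36.0 ± 2.27 against 39.2 ± 1.37 FPKM with overlap. CYCS, the cytochrome c that carries electrons between complexes III and IV, was 27.9 ± 1.16 against 30.5 ± 3.50 FPKM.

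The assembly factor lists held no call. Their median log2 fold changes were -0.09 for complex I (15 genes), 0.06 for complex II (4), 0.15 for complex III (6), -0.03 for complex IV (21) and -0.30 for complex V (3). In the lists of complexes II, III and V 0 genes separated without overlap. For complex I 1 was higher and 3 lower without overlap, and for complex IV 1 and 4, beside 14.6% and 14.7% of all genes tested. Among 9 transcriptional regulators of nuclear respiratory genes 0 were called. The co-activator PPARGC1A was 1.28, 1.37 and 1.16 FPKM in Sh-NC and 1.98, 2.56 and 2.47 FPKM in Sh-YAP1, without overlap (0.55 ± 0.11, adjusted p = 0.0518 by limma, from 0.0351 to 0.160 over the alternatives). GABPA, an ETS factor, was 3.62, 4.03 and 4.20 against 5.25, 5.45 and 4.96 FPKM (0.33 ± 0.09, adjusted p = 0.0985). GABPB1, the partner subunit of GABPA, was 12, 9.27 and 8.36 against 6.42, 7.88 and 7.10 FPKM (-0.41 ± 0.14, adjusted p = 0.166), and PPARGC1B was 1.89, 1.60 and 1.74 against 1.42, 1.44 and 1.41 FPKM (-0.18 ± 0.09, adjusted p = 0.318, with -0.27 at a pseudocount of 0.1 FPKM and -0.098 without transcripts averaging under 0.1 FPKM). Of the 9 regulators 2 were higher and 2 lower without overlap, beside 14.6% and 14.7% of all genes tested, with a median log2 fold change of -0.05.

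Promoters were examined for letters known from respiratory genes. Of the 82 nuclear genes 67 had an entry in the RefSeq promoter table (GRCh38.p14, 250 bases before to 50 after the start). The palindromic NRF1 motif was in 4 of 67 (5.97%, beside 1.52% of the 27305 genes with an entry), which were NDUFB4, NDUFA8, SDHD and ATP5F1C. The 27305 were not limited to genes tested here, so the shares beside each motif come from an unlike set. The ETS motif CCGGAAGT, searched on both strands as were those that follow, was in 12 (17.9% beside 4.95%), the YY1 motif in 4 (5.97% beside 1.04%), the ERR motif TCAAGGTCA in 1 (1.49% beside 0.432%) and the TEAD motif CATTCC, that of the factors YAP1 works through, in 7 (10.4% beside 16.7%). No motif contains another, and a match is a description of letters only. The NRF1 matches that lie before both the RefSeq and the GENCODE 29 start are printed with the motif in capitals, on the plus strand at chr3:120596157-120596206 and chr11:112086743-112086772.
NDUFB4: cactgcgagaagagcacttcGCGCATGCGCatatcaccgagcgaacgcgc
SDHD: accttccgacagctgtgtttGCGCATGCGC
The 4 genes with this motif did not share a direction, with log2 fold changes of -0.96 for NDUFB4, -0.11 for ATP5F1C, -0.04 for SDHD (0.01 after rescaling to the FPKM outside MT- genes) and 0.24 for NDUFA8.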

How the data were processed

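Total RNA of 6 MDA-MB-231 libraries was sequenced for the authors, who deposited FPKM values with 2 decimals, 229420 transcripts per library with a gene identifier. The submitters' processing notes name Bowtie 0.12.2, HISAT2 2.0 and hg19 without a role. The quantifier, annotation, filters and strand setting are not given in the sources used here. Depth is unknown, so no counting interval could be given, and errors come from the spread between libraries, which were 3 per group. FPKM sums were 467493 to 475116 per library. Transcripts were summed per gene. Symbols came from a gene name table, gene types and GRCh38 positions from GENCODE 29. The build of the values is not certain, since the notes name hg19 while 58394 of the 60612 gene identifiers are in GENCODE 29.

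Genes averaging 0.5 FPKM or more over the libraries were tested on log2(FPKM + 1) with limma 3.58.1 (R 4.3.3, mean-variance trend, Benjamini-Hochberg adjustment), tested on simulated data first. Single values had exact two-sided permutation tests. Same-numbered libraries did not deviate together (r = -0.03, 0.06 and 0.00 over all genes). Genes, lists and tests were chosen with earlier results of these data known. Named were YAP1, the mtDNA genes, SDHA to SDHD, called genes, the most abundant and most changed nuclear gene in each direction per complex, isoform pairs, TFAM, POLRMT, LRPPRC, SLIRP and CYCS, and genes on which a count of 5 or fewer turned. NDUFA13, NDUFB8, NDUFS6, NDUFA9, UQCR11, UQCRFS1, ATP5F1A, PPARGC1A, GABPA, GABPB1, PPARGC1B and, for such counts, NDUFB1, NDUFA8, NDUFS4, NDUFA2, CYC1, COX7A2L, ATP5IF1 and ATP5F1C were named after their values were seen. TFB1M and TOP1MT were also named after their values were seen and were not followed under the alternatives. Alternatives varied the pseudocount, scaling, filter, trend, block, transcript filter and libraries. A gene that counts in the totals is not reported here by name.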

Additional observations from a re-analysis of the deposited data

How the results depend on the processing

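Of 928 values of 58 single genes under the alternatives, 871 kept their direction and side of the threshold and 6 were exactly 0, all in mtDNA genes under quantile normalization. All genes called were 499 with the settings used above, 232 with no filter, 1 with the replicate block and 78 to 171 with 1 library left out. Rescaling to the FPKM outside MT- genes changed the split of calls over all genes from 259 higher and 240 lower to 362 higher and 190 lower, and that of respiratory chain genes without overlap from 11 higher and 15 lower to 17 higher and 12 lower. The number called higher was 1 under quantile normalization (MT-ND6, adjusted p = 0.0327 by limma) and 0 to 1 with 1 library left out (NDUFA13 without Sh-NC replicate 1, NDUFB5 without Sh-YAP1 replicate 1). The number called lower was 0 under quantile normalization, with no filter and with the replicate block, and 0 to 1 with 1 library left out (NDUFB4 without Sh-NC replicate 3, ATP5F1B without Sh-YAP1 replicate 1). The mtDNA median was 0.00 and the complex IV median -0.077 under quantile normalization, and the latter was -0.19 to -0.073 with 1 library left out.

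The replicate numbers do not pair the libraries by the check of their deviations. With the replicate block 0 respiratory chain genes were called, 19 had an unadjusted p under 0.05 and 2779 of all genes did.

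Signs turned in 11 genes, among them MT-CO1, which was 0.20 without overlap as deposited. After rescaling outside MT- genes MT-ND2 was 0.019, MT-ND3 0.038, SDHD 0.011 and COX7A2 0.049, beside a median of 0.040 over all genes tested. Under quantile normalization MT-ND1 was -0.0071, MT-CO1 -0.036, NDUFS5 0.034 and COX7A2 0.032. That scaling makes the highest values equal across libraries, so it cannot show a shift shared by the highest genes, MT-CO1 among them. With 1 library left out the ranges were -0.073 to 0.11 for MT-ND1, -0.12 to 0.020 for MT-ND2, -0.095 to 0.077 for MT-ND3, -0.094 to 0.048 for SDHD, -0.12 to 0.20 for COX7C, -0.26 to 0.22 for COX7A2, -0.012 to 0.14 for ATP5MC3, -0.13 to 0.033 for POLRMT and -0.27 to 0.43 for ATP5F1A. The causes were not tested.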
